A study of Mus musculus with 6 samples.

Results

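Immature ovary was compared with immature uterus on 4 one-colour expression arrays, 2 a tissue. The members were fixed by tissue and not by any measured value, so the 4 arrays are all those of ovary and uterus among the 6 arrays of the series (the other 2 hold liver). Each array carried RNA pooled from 3 female CD-1 mice, aged 24 days per the labels. The control pools came from mice given peanut oil by gavage, and the BHPF pools from mice given 50 mg/kg fluorene-9-bisphenol (BHPF, a bisphenol A substitute) daily for 3 days. Every tissue and treatment has 1 array, and mice of all groups were immature females. The comparison describes how the organs differ before puberty and not the treatment: a gene counted only where the control pair and the BHPF pair gave the same answer.

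The ovary at this age holds oocytes enclosed in granulosa cells, with steroid-producing theca and interstitial cells between the follicles. The oocyte builds the zona pellucida and stores RNAs and proteins for the early embryo, the granulosa cell makes anti-Müllerian hormone, inhibin and, through aromatase, oestrogen, and the theca cell supplies the androgen that aromatase uses. The uterus derives from the Müllerian duct and consists of a luminal and glandular epithelium, a stroma and a muscular wall, laid out by Hox, Msx and Wnt genes and kept responsive to ovarian steroids by the oestrogen and progesterone receptors. Both organs arise from neighbouring mesoderm and share fibroblasts, vessels, smooth muscle and blood cells.

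Levels were log2 signals relative to the 75th percentile of each array, so that a level of 0 is as bright as that percentile, and a difference is the ovary level minus the uterus level on the log2 scale. Positive differences are higher in the ovary and negative ones higher in the uterus, and paired values are given control first, then BHPF. A single fold or difference of a gene is that of the mean of the 2 pair differences. Where a probe missed the scanner's mark of being well above background on 1 or both arrays of a tissue, the difference and fold are lower bounds, written "at least". They bound the mean of the pairs, and the bound of 1 pair can be smaller. A probe that entered only through the tissue where it was bright could be called only towards that tissue. Counts of genes with such probes therefore describe and do not test. With 1 array a group there is no replicate of a tissue and treatment, which limits the precision of every value. The share of probes well above background was 74.5% and 69.3% for ovary and 68.9% and 64.7% for uterus. All 4 arrays lay on 1 slide, with both ovary arrays in column 2 and both uterus arrays in column 3. Tissue and slide column therefore cannot be told apart. Both control arrays lay in row 1 and both BHPF arrays in row 2, so neither can treatment and slide row. Since RNA came from whole organs, fewer cells of a type and less RNA per cell cannot be told apart.

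Some properties of the arrays touch the results. The 20 genes of the liver list had a summed signal, in units of each array's 75th percentile, of 3.20 in the control uterus and 51.5 in the BHPF uterus, against 11.4 and 13.1 in the ovary and 632 and 617 in liver. The liver list had a median difference of 1.31 in the control pair and -2.60 in the BHPF pair, and leaving out the 240 evaluated probes that were at least 64-fold brighter in control liver than in either control organ moved the counts of probes by 1 in the ovary and 21 in the uterus. In the authors' value table the 2 uterus columns hold each other's scanner values, 99.1% of them within 0.001 after a constant shift, so which uterus pool had received BHPF was not settled by the files. Results are given with the uterus arrays as their labels name them, and were also computed with the 2 exchanged.

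The labels were first set against marker genes. All 3 zona pellucida genes were well above background on both ovary arrays and at least 57.8-fold higher there. Of 20 uterine epithelial genes, 19 were at least 2-fold higher on the uterus arrays in both pairs. Zona genes were thus bright on the arrays labelled ovary, and epithelial genes on those labelled uterus. Of these, 1 of 3 zona and 18 of 20 epithelial genes were well above background on all 4 arrays. The lists were also chosen with earlier results of these data known, so these counts describe and do not test the labels. Pancreatic carboxypeptidase A1, Cpa1, was at 1.14 and 1.20 in the ovary and not well above background in the uterus, a difference of at least 97.5-fold. Cela3b and Ctrb1, of the same list, were also higher in the ovary, by 3.41-fold and at least 4.61-fold, whereas Ins1, Ins2, Ctrl and Amy2a5 differed by less than 2-fold. Of the list's 10 evaluated genes, 3 were at least 2-fold higher in the ovary in both pairs and 0 in the uterus. Mean differences ran from -1.02, towards the uterus, to 6.61. The part of adjoining pancreas in these values was not tested.

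Promoter sequences of 3 genes that stand for the oocyte, the granulosa cell and smooth muscle are shown because each holds a motif tied to its cell type in general knowledge. They are the 250 bases before the transcription start, from RefSeq on build GRCm38.p6, read 5′ to 3′ on the gene's strand. Zp3 (chr5:135979855-135980104, plus strand) holds 3 copies of CANNTG, the E-box, in capitals. Amhr2 (chr15:102445117-102445366, plus strand) holds AAGGTCA, the motif of the nuclear receptor NR5A1, in capitals. Myl9 (chr2:156775214-156775463, plus strand) holds a CArG box, the element of serum response factor, in capitals.
Zp3: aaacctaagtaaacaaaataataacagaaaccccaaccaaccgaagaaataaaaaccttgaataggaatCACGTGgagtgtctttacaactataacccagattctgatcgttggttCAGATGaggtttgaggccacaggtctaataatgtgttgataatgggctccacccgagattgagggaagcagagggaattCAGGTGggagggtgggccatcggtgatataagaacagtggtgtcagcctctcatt
Amhr2: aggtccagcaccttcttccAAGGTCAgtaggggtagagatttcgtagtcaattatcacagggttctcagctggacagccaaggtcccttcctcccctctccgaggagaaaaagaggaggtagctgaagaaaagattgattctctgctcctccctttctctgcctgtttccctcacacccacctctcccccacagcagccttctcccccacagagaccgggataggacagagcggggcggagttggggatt
Myl9: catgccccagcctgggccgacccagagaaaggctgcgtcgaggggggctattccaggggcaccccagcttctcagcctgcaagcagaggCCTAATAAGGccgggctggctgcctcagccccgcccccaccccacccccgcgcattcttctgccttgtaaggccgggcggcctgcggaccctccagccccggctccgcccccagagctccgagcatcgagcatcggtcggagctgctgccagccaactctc
Both strands were searched. Among all 32851 promoter windows of the same length, 66.2% held CANNTG, 4.08% held AAGGTCA, 1.47% held a CArG box and 12.4% held TATAAA. Relative to the start, the E-boxes of Zp3 begin at -181, -134 and -55, the NR5A1 motif of Amhr2 at -231 and the CArG box of Myl9 at -161. Windows of Cyp11a1 (2 starts) and Acta2 held no AAGGTCA and no CArG box, respectively, and Amhr2 and Myl9 were chosen after the search. Among genes with a window, 1 of 8 steroid enzyme genes (Sult1e1) held the NR5A1 motif and 1 of 13 contractile genes (Myl9) the CArG box. Zp1, Zp2, Star, Cyp17a1, Actg2, Tagln and Myh11 were not shown.

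Across the arrays, 39532 of 55681 probes were evaluated, meaning well above background on both arrays of at least 1 tissue, and they named 16448 genes. Genes at least 2-fold higher in the ovary in both pairs numbered 1480, or 9.0% of those evaluated, and 1942, or 11.8%, were at least 2-fold higher in the uterus. By probes, 2936 (7.43%) were higher in the ovary and 3847 (9.73%) in the uterus. The 2 pairs of arrays gave close values for probes that passed the background mark everywhere. Their control and BHPF differences lay a median of 0.20 apart (log2), and 95% lay within 0.74. The spots of 1 probe on an array gave an SD of 0.13 for 1 ovary minus uterus difference. That SD is for 1 difference and not for the gap between 2, so these values are not like for like. A further summary came from limma with a treatment term, in which the only spread is the disagreement between the 2 pairs. The SE of a probe mixes its own disagreement (1 residual degree of freedom) with that pooled over all evaluated probes (3.09 prior degrees of freedom). The p-values measure no other spread. At an adjusted p under 0.05, limma called 6938 probes (17.6%) higher in the ovary and 8032 (20.3%) higher in the uterus. Its calls included 99.7% and 99.8% of the probes that were 2-fold in both pairs. Both rules use the same 2 pairs of arrays, so this overlap is no separate support for the calls. The smallest adjusted p from limma was 0.000397. Of limma's calls, 46.3% were higher in the ovary, against 57.3% after scaling to the 50th percentile. That scaling moved the median over genes by 0.13 (log2), so small differences of either sign depend on it, and the median difference over genes was -0.02 as scaled here. In what follows, a gene is called higher in a tissue only if it was at least 2-fold higher there in both pairs. Counts within a list are to be read against the shares over all evaluated genes, 9.0% for the ovary and 11.8% for the uterus.

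**Figure D1:**
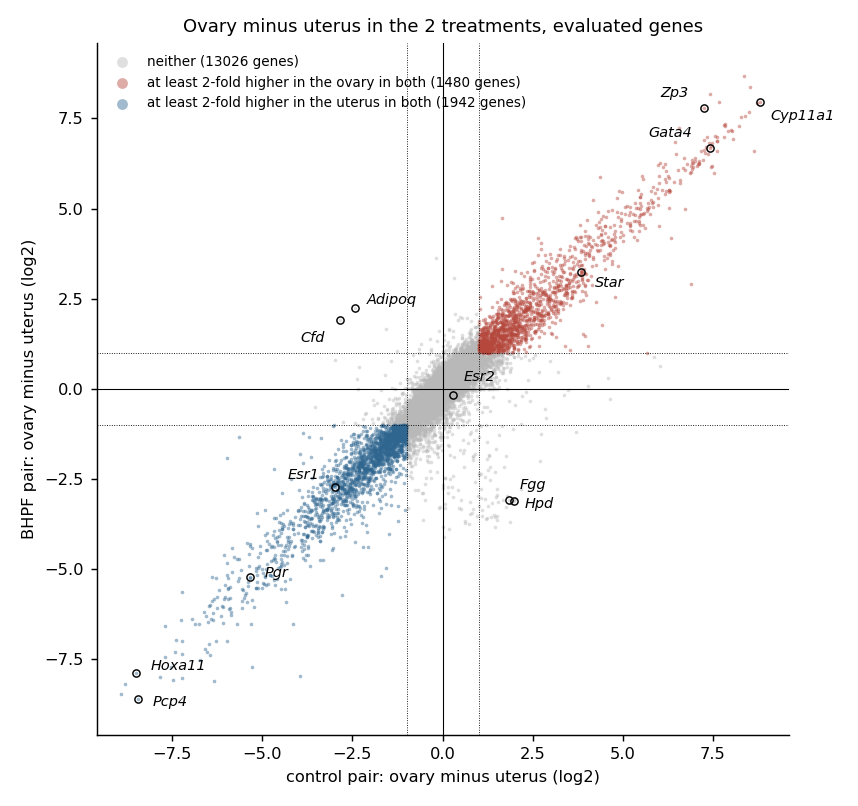
Ovary minus uterus difference (log2) of the 16448 evaluated genes in the control pair (horizontal axis) and the BHPF pair (vertical axis), with dotted lines at 2-fold. The 1480 genes higher in the ovary and 1942 higher in the uterus follow the diagonal, while Adipoq, Cfd, Fgg and Hpd lie in the quadrants where the pairs have opposite signs.

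Genes of the oocyte stood far apart between the organs. Of its 4 lists, 1 of 3, 2 of 9, 3 of 8 and 7 of 17 genes were well above background on all arrays, in the order given here. All 3 zona genes were higher in the ovary, with a median difference of 7.10 against -0.02 over all genes. Zp1, a cross-linking glycoprotein of the egg coat, had levels of 1.60 and 1.54 in the ovary and -4.41 and -4.15 in the uterus, all well above background, which is 57.8-fold (difference 5.85, SE 0.15, limma adjusted p = 0.000397). Zp2, which sperm bind, was at 1.66 on both ovary arrays and not well above background in the uterus, at least 137-fold apart. Zp3, the main structural partner of ZP2, was at 2.69 and 2.73 in the ovary and at least 184-fold lower in the uterus.

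The 9 transcription factors and RNA-binding proteins of germ cells were all higher in the ovary, with a median difference of 3.24. Figla, the E-box factor needed for zona gene transcription and primordial follicles, had levels of -0.33 and -0.24 in the ovary and was not well above background in the uterus, at least 35.5-fold apart. Nobox, an oocyte homeobox factor, reached 1.25 and 1.12 in the ovary and at least 98.6-fold. Lhx8, a LIM homeobox factor of early oocytes, differed by at least 58.3-fold, and Dazl, an RNA-binding protein of germ cells, by at least 41.7-fold. Sohlh1, a bHLH factor of primordial follicles, was well above background everywhere and 5.90-fold higher in the ovary. Taf4b, a gonad-enriched subunit of the transcription machinery, differed by at least 3.00-fold and was no longer 2-fold in both pairs after normexp background correction.

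Of 8 secreted factors and kinases, 7 were higher in the ovary (median 6.27). Gdf9, the oocyte growth factor that drives granulosa growth, had levels of 2.24 and 2.56 in the ovary and -4.43 and -3.56 in the uterus, 84.3-fold apart. Its partner Bmp15 was at 1.47 and 1.49 in the ovary and at least 121-fold lower in the uterus. Oosp1, an oocyte-secreted protein, differed by at least 191-fold and Mos, the kinase that holds eggs in metaphase, by at least 70.3-fold. Kit, the receptor through which granulosa cells signal to the oocyte, was 3.84-fold higher in the ovary. The exception was Plat, tissue plasminogen activator, at 1.71 and 1.65 in the ovary and 2.53 and 2.68 in the uterus.

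Maternal-effect genes, whose products the egg stores for the embryo, were higher in the ovary for 16 of 17 (median 5.95). Padi6, a component of the oocyte's cytoplasmic lattices, was at 2.23 and 2.09 in the ovary and not well above background in the uterus, at least 193-fold apart. Zar1, an egg RNA-binding protein, had levels of 1.94 and 2.32 in the ovary against -5.53 and -3.86 in the uterus (113-fold), and the 2 uterus arrays lay further apart than the ovary arrays. Npm2, the histone chaperone of the egg, was 39.5-fold higher, and Dppa3, which guards the maternal genome, at least 128-fold. Lower folds came from Nlrp5 (9.19-fold) and Tle6 (6.73-fold), both of the subcortical maternal complex, and from the oocyte linker histone H1f8 (2.80-fold), whose probe was also at 1.93 in control liver. Ooep, of the same complex, was dim in the ovary (-4.26 and -4.31) and gave bounds of 1.54 and 0.76 (log2), so it was not called.

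Signalling genes of the granulosa cell followed. All 6 of the AMH, inhibin and activin list were higher in the ovary (median 3.56). Inha, the shared subunit of the inhibins, had levels of 4.35 and 4.40 in the ovary and -0.10 and -0.39 in the uterus, or 24.6-fold. Amh, the anti-Müllerian hormone, was at -1.14 and -0.95 in the ovary and not well above background in the uterus (at least 20.9-fold). Its receptor Amhr2 was at 2.66 and 2.72 in the ovary and -1.51 and -1.41 in the uterus, 17.8-fold apart (difference 4.15, SE 0.13, limma adjusted p = 0.000425); the uterine signal was well above background, and the receptor is known to act in Müllerian mesenchyme as well. The activin subunits Inhba and Inhbb were 7.43-fold and 3.65-fold higher in the ovary, and the activin-binding follistatin, Fst, 7.88-fold.

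Of 11 identity and receptor genes of the granulosa cell, 8 were higher in the ovary (median 2.28). Fshr, the FSH receptor, had levels of 2.04 and 2.23 in the ovary and was not well above background in the uterus, at least 190-fold apart. Nr0b1 (DAX1), a nuclear receptor repressor, was 39.0-fold higher, and Nr5a2 (LRH1), an activator of steroid genes, 16.4-fold. Gja1, the granulosa gap junction protein, and Serpine2, a protease inhibitor of granulosa cells, were 4.51-fold and 4.85-fold higher. The other 3 were not called. Foxl2, the factor that maintains granulosa identity, was at 0.71 and 0.73 in the ovary and 0.54 and 0.72 in the uterus, and its probes read 1.27 in control liver. Esr2, oestrogen receptor beta, was at 3.45 and 3.13 in the ovary and 3.17 and 3.31 in the uterus, and at 3.51 in control liver. Neither gene separated the tissues, and whether their probes measure these genes alone was not tested. Kitl, the ligand of KIT, differed by 1.22-fold.

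The enzymes of steroid synthesis differed by more than the genes that supply their cholesterol. All 9 evaluated steroid enzymes were higher in the ovary, with a median difference of 6.70 (Sult1e1, oestrogen sulphotransferase, was not well above background on any of the 4 arrays). Cyp11a1, the side-chain cleavage enzyme that opens the pathway, had levels of 3.00 and 2.90 in the ovary and was not well above background in the uterus, at least 334-fold apart. Hsd3b1, which makes progesterone from pregnenolone, was at 3.79 on both ovary arrays and at -3.63 and -4.40 in the uterus (222-fold); its probe may also read near-identical Hsd3b copies. Cyp17a1, the androgen-forming enzyme of theca cells, was at 3.84 and 3.74 against -3.82 and -4.22, 224-fold apart (difference 7.81, SE 0.15, limma adjusted p = 0.000397). Cyp19a1, aromatase, was at 1.59 and 1.32 in the ovary and at least 104-fold lower in the uterus, and Hsd17b1, which completes oestradiol, was 100-fold higher in the ovary. Srd5a1, a 5-alpha reductase, and Hsd17b7 had small differences of 3.32-fold and 4.22-fold.

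In contrast, 2 of 9 genes that bring cholesterol or electrons to these enzymes were called, with a median of 0.85. Star, which carries cholesterol into the mitochondrion, had levels of -0.29 and -0.80 in the ovary and -4.12 and -4.04 in the uterus, 11.6-fold apart. Fdxr, which feeds electrons to mitochondrial P450s, was 6.55-fold higher. Its partner Fdx1 lay at 2.95 and 3.13 against 2.01 and 2.07, with differences of 0.94 and 1.06, just at the threshold. Scarb1 and Npc1, which take up and move cholesterol, had differences between 0.71 and 0.95 and were not called. Within cholesterol synthesis, 7 of 21 genes were higher in the ovary and 0 in the uterus (median 0.69), among them Insig1, the sterol-regulated brake, by 3.98-fold and Sc5d, a desaturase, by 3.30-fold. Ebp and Pmvk had differences below 0 in both pairs.

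Theca and interstitial genes were divided: 4 of 8 evaluated were higher in the ovary and 0 in the uterus (median 0.93). Lhcgr, the LH receptor, was at -0.60 and -0.67 in the ovary and not well above background in the uterus, at least 27.8-fold apart. Nr5a1 (SF1), the nuclear receptor that switches on steroid enzymes, had levels of 2.68 on both ovary arrays and -1.26 and -1.31 in the uterus, or 15.6-fold. The hedgehog targets of theca cells did not separate the organs: Gli1 was at 1.45 and 1.76 in the ovary and 2.25 and 2.52 in the uterus, and Ptch1 had differences of -0.09 and -0.22.

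**Figure D2:**
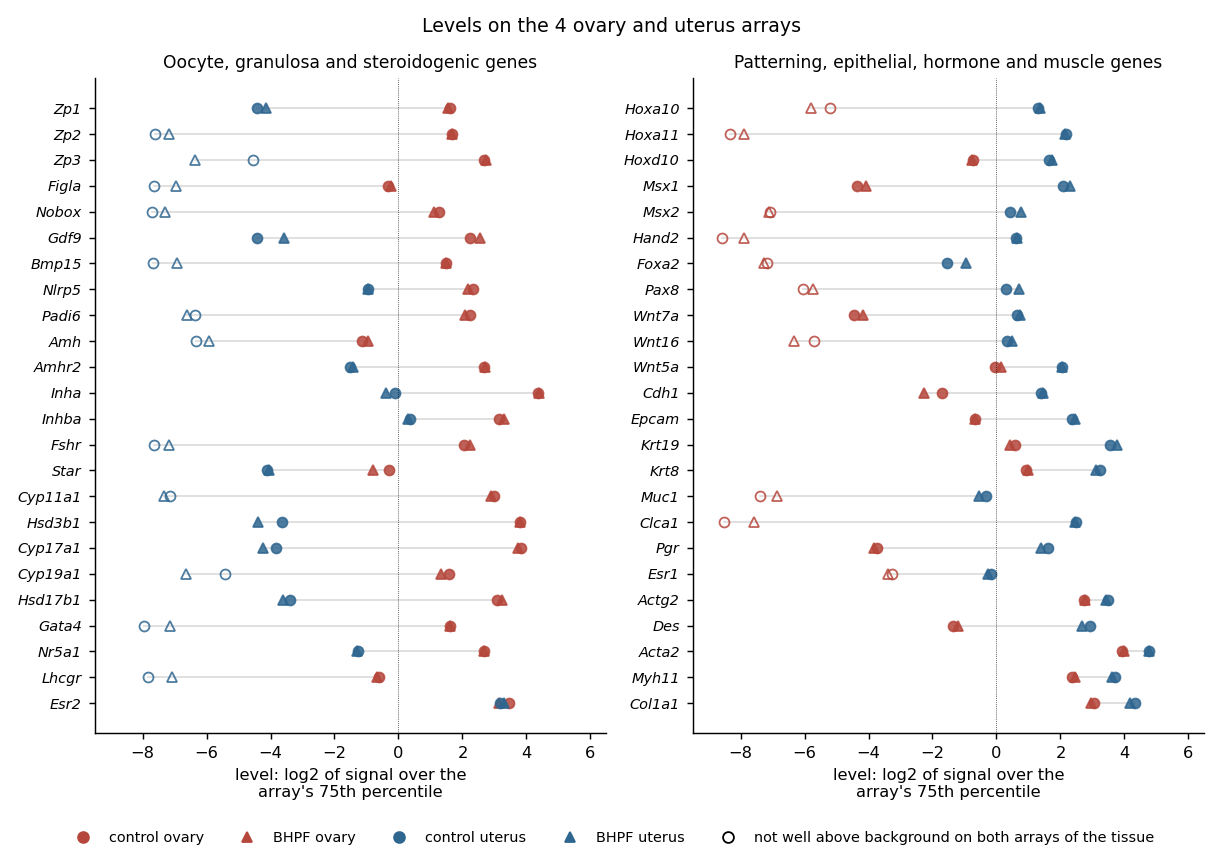
Levels (log2 of signal over the array's 75th percentile) of 48 genes on the 4 arrays: red ovary, blue uterus, circles control and triangles BHPF, open where the gene was not well above background on both arrays of the tissue. Arrays of 1 tissue nearly coincide for most genes, and Esr2 is the gene in the left panel whose tissues overlap.

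Genes that direct gonad formation went both ways: 5 of 12 were higher in the ovary, 3 in the uterus (median 0.37, which became -0.11 in the authors' table). Gata4, a zinc finger factor of gonadal somatic cells, had levels of 1.61 on both ovary arrays and was not well above background in the uterus, at least 132-fold apart, while its relative Gata6 was 2.29-fold higher in the ovary. Lhx9, needed for the early gonad, was at least 7.47-fold higher. Wt1, a zinc finger factor of the whole urogenital ridge, was at 2.22 and 2.20 in the ovary and 2.60 and 2.43 in the uterus, so it did not separate them. Emx2, a homeobox factor of the same ridge, was 2.93-fold higher in the uterus. Rspo1 and Sox9, which in the embryo act on opposite sides of sex determination, were both higher in the uterus, by 3.54-fold and 6.73-fold. Wnt4 was not called, at -0.27 and 0.27 in the ovary and -0.69 and -0.62 in the uterus.

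Hox genes, which assign position along the body and the reproductive tract, divided in part by cluster. Not every Hox gene higher in the ovary lay in the c cluster. Of 12 evaluated posterior genes (paralogue groups 9 to 13), 7 were higher in the uterus and 1 in the ovary (median -1.81), and of 20 anterior and central genes, 10 were higher in the uterus and 4 in the ovary (median -1.11). Hoxa11, which patterns the uterus and its stroma, had levels of 2.17 and 2.15 in the uterus and stayed below the background mark in the ovary, at least 293-fold apart. Hoxa10, needed for uterine identity and implantation, was at 1.29 and 1.35 in the uterus and at least 110-fold lower in the ovary. Hoxa9, tied to the oviduct in the adult, was at least 26.8-fold higher in the uterus, whereas Hoxa13, tied to cervix and vagina, was at -1.60 and -1.28 in the uterus and -1.71 and -1.55 in the ovary. Along the d cluster, Hoxd11 was 15.4-fold and Hoxd10 5.43-fold higher in the uterus. Hoxd9 was 2.26-fold higher but fell under 2-fold in a pair with scaling to the 50th percentile.

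The b cluster was higher in the uterus from group 2 to group 8. Hoxb8 had levels of 1.74 and 1.72 in the uterus and -4.35 and -4.33 in the ovary, 67.0-fold apart (limma adjusted p = 0.000397). Hoxb6 was at 0.79 and 1.16 against -4.78 and -4.39 (47.0-fold), and Hoxb2, Hoxb3, Hoxb4, Hoxb5 and Hoxb7 were between 6.89-fold and 11.4-fold higher. Hoxb9 was not called (-0.61 and -0.92). The c cluster ran the other way for 4 of its 7 evaluated genes. Hoxc6 was at 0.48 and 0.80 in the ovary and -1.36 and -1.35 in the uterus, 4.0-fold higher in the ovary, and Hoxc4, Hoxc8 and Hoxc9 were 3.67-fold, 4.35-fold and 4.81-fold higher there. Hoxc11 was the 1 c cluster gene higher in the uterus (at least 5.98-fold). Hoxa4, Hoxb1, Hoxb13, Hoxc12, Hoxc13, Hoxd1 and Hoxd13 were not well above background on both arrays of either tissue.

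**Figure D3:**
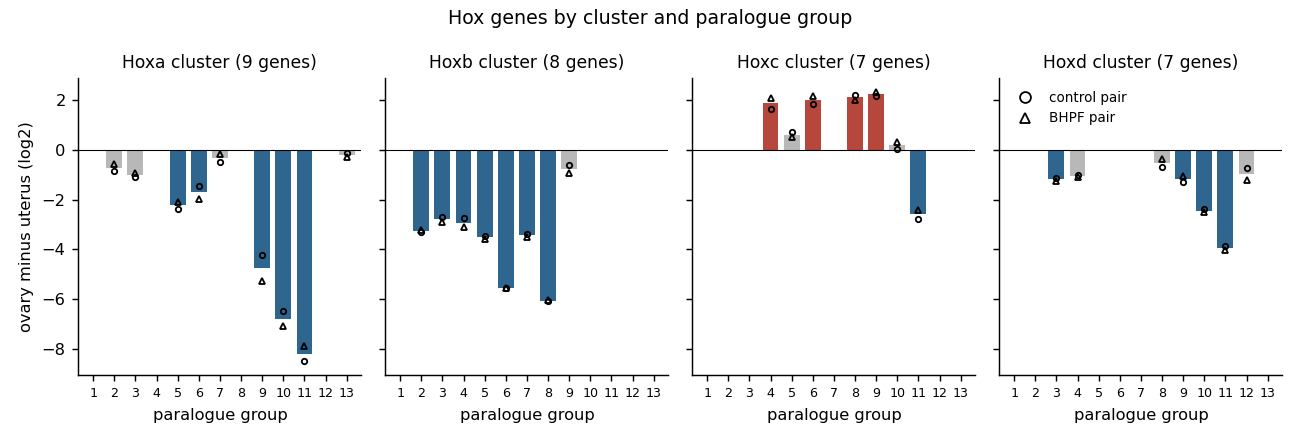
Ovary minus uterus difference (log2) of evaluated Hox genes by cluster and paralogue group. Bars are the mean of the control pair (circles) and the BHPF pair (triangles), with lower bounds where a tissue was dim, red where higher in the ovary in both pairs, blue where higher in the uterus and grey otherwise; the b cluster lies below 0, and 4 of 7 c cluster genes lie above 1.

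Factors that shape the Müllerian duct and uterus were higher in the uterus for 11 of 18 evaluated genes and in the ovary for 1 (median -1.57). Msx1, a homeobox repressor of epithelium and stroma, had levels of 2.07 and 2.31 in the uterus and -4.35 and -4.08 in the ovary, 84.9-fold apart (difference -6.41 in limma, adjusted p = 0.000397), and Msx2 was at least 99.5-fold higher. Hand2, the stromal bHLH factor through which progesterone restrains epithelial growth, was at 0.62 and 0.65 in the uterus and not well above background in the ovary, at least 102-fold apart. Pax8, a mark of Müllerian epithelium, was at least 83.9-fold and Foxa2, a gland factor, at least 24.7-fold higher, while Gata2 was 21.0-fold higher. Meis1 and Meis2, Hox cofactors, were 3.01-fold and 5.0-fold higher. Ihh, the hedgehog ligand of the uterine epithelium and also of granulosa cells, was 4.55-fold higher in the ovary (0.20 and 0.37 against -1.96 and -1.84). Pax2 and Lhx1, factors of the embryonic duct, differed by 1.14-fold and 1.07-fold.

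Wnt ligands were higher in the uterus for 6 of 12 evaluated members and in the ovary for 0 (median -1.20). Wnt7a, the epithelial ligand that maintains uterine patterning, had levels of 0.64 and 0.75 in the uterus and -4.45 and -4.18 in the ovary, 32.3-fold apart. Wnt16 was at 0.32 and 0.49 and at least 58.0-fold higher, Wnt11 6.56-fold and the stromal ligand Wnt5a 4.0-fold. Among 30 receptors, inhibitors and targets, 13 were higher in the uterus and 3 in the ovary (median -0.69). Fzd10, a Wnt receptor, was at 1.58 and 1.74 in the uterus and -4.93 and -4.72 in the ovary, 89.6-fold apart. The secreted inhibitors Wif1, Sfrp2, Dkk2 and Sfrp4 were 65.6-fold, 26.6-fold, 9.42-fold and 6.17-fold higher in the uterus, and Sfrp1 2.50-fold higher in the ovary, a call lost with normexp. R-spondins, which enhance Wnt signalling, were split by member: Rspo3 was at 2.57 and 2.79 in the uterus and -2.58 on both ovary arrays (38.2-fold). In contrast, Rspo2 was at -0.42 on both ovary arrays and at least 32.3-fold lower in the uterus. Axin2, a target that reports the pathway, was 2.25-fold higher in the uterus, a call lost with normexp, quantile and 50th percentile scaling.

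Epithelial genes made the clearest uterine group, with 19 of 20 higher in the uterus (median -3.28). Cldn3, a tight junction claudin, had levels of 2.10 and 2.28 in the uterus and -3.89 and -4.72 in the ovary, 90.0-fold apart. Cdh1, the epithelial cadherin, was at 1.39 and 1.45 against -1.70 and -2.27 (10.6-fold), and Epcam 8.46-fold higher. Keratins of simple epithelium were present in both organs and higher in the uterus: Krt19 was at 3.54 and 3.78 against 0.59 and 0.43 (8.86-fold), with Krt7 13.2-fold, Krt18 5.84-fold and Krt8 4.63-fold. Muc1, a surface mucin, was at least 48.0-fold higher, and the epithelial transcription factors Elf3 and Grhl2 25.7-fold and 13.8-fold. Cldn1 was not called, with differences of 0.53 and -0.04. Ehf was 2.34-fold higher, a call lost with 50th percentile scaling.

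Genes known to respond to oestrogen in the uterus were higher there for 15 of 20 (median -3.18). Clca1, a secreted regulator of chloride channels, had levels of 2.49 and 2.45 in the uterus and was not well above background in the ovary, at least 364-fold apart. Pgr, the progesterone receptor, was at 1.60 and 1.40 in the uterus and -3.73 and -3.82 in the ovary, 38.7-fold apart (difference -5.28 in limma, adjusted p = 0.000416). Padi1, a protein deiminase, was 121-fold higher, Gjb2, connexin 26, 27.3-fold, and Ramp3, an adrenomedullin coreceptor, 6.41-fold. For Ltf, lactoferrin, the uterus arrays lay at 3.46 and 3.50 and the ovary arrays at -0.50 and -4.48, so its 62.8-fold difference rests on ovary arrays that lie far from each other. The small proline-rich genes also varied between the arrays labelled control and BHPF, as for Sprr2f at 2.93 and 1.59 in the uterus and -2.39 and -4.92 in the ovary. Aqp8, a water channel, was higher in the ovary (at least 7.18-fold). Greb1 and Igf1, which oestrogen also induces, were not called, with Greb1 at 2.56 and 2.73 in the ovary and 1.66 and 1.53 in the uterus.

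Receptors for hormones split evenly: 5 of 22 were higher in the ovary and 5 in the uterus (median -0.26). Ovarian ones were Fshr, Lhcgr and Amhr2, given above, together with Bmpr1b, a BMP receptor of granulosa cells (12.8-fold), and Prlr, the prolactin receptor (at least 6.65-fold). Uterine ones were Pgr, given above, Esr1, Gper1, Rarb and Vdr. Esr1, oestrogen receptor alpha, had mean levels over its probes of -0.17 and -0.26 in the uterus and -3.27 and -3.38 in the ovary, at least 7.23-fold apart. Gper1, a membrane oestrogen receptor, and Rarb, a retinoic acid receptor, were 4.58-fold and 4.80-fold higher, and the vitamin D receptor Vdr 2.67-fold. Insr, Igf1r, Ghr and Thra differed by 1.05-fold or less on the mean of the pairs.

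Genes induced at ovulation were mostly not higher in the immature ovary. Of 9 evaluated, 5 were higher in the uterus and 2 in the ovary (median -1.80). Ptgs2, the inducible prostaglandin synthase, had levels of -2.29 and -2.46 in the uterus and -6.01 and -6.92 in the ovary, at least 11.3-fold apart. Has2, which makes the hyaluronan of the cumulus matrix, was 4.51-fold and Tnfaip6, which stabilises it, 3.75-fold higher in the uterus, the latter a call lost where its brightest probe stood for the gene. Ptx3, another matrix protein, was 7.27-fold and the EGF-like ligand Ereg at least 5.14-fold higher in the ovary. Areg was not well above background on both arrays of either tissue.

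Contractile genes of smooth muscle were higher in the uterus for 6 of 16 members and in the ovary for 0, with a median difference of -0.81. Des, desmin of the muscle intermediate filaments, had levels of 2.94 and 2.67 in the uterus and -1.36 and -1.20 in the ovary, 16.9-fold apart. Synpo2, an actin-bundling protein, was at least 7.02-fold, Cnn1 (calponin) 3.08-fold, Lmod1 2.86-fold, Smtn 2.56-fold and Myh11, the smooth muscle myosin heavy chain, 2.40-fold higher. Acta2, smooth muscle actin, did not reach 2-fold: it was at 4.75 and 4.76 in the uterus and 3.91 and 3.97 in the ovary. Actg2, Myl9, Tpm2 and Tagln likewise had differences between -0.32 and -0.89. Among 14 regulators and channels, Pln, the calcium pump regulator, was 6.96-fold and Kcnmb1, a potassium channel subunit, 3.68-fold higher in the uterus, whereas Myocd, the SRF coactivator, was at -2.23 and -2.11 in the ovary and -3.65 and -3.71 in the uterus, 2.85-fold higher in the ovary.

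Collagens and other matrix genes leaned to the uterus. Of 16 evaluated collagens, 6 were higher there and 2 in the ovary (median -1.04). Col14a1, a fibril-associated collagen, had levels of 0.82 and 0.63 in the uterus and -2.84 and -2.98 in the ovary, 12.4-fold apart, and Col6a2 was 4.92-fold higher. Col1a1, the main fibrillar chain, was 2.38-fold higher, a call lost with quantile scaling, and the basement membrane chains Col4a1 and Col4a2 differed by 1.18-fold and 1.25-fold. Col11a1 ran the other way, at 0.91 and 1.07 in the ovary and -2.12 and -2.30 in the uterus (9.16-fold). Of 18 other matrix and fibroblast genes, 5 were higher in the uterus and 1 in the ovary (median -0.65): Postn, periostin, was 9.97-fold higher in the uterus, and Tnc, tenascin C, at 0.36 on both ovary arrays against -3.97 and -3.46, 16.9-fold higher in the ovary. Vim, Sparc and Pdgfra, which fibroblasts of both organs express, were between 1.41-fold and 1.53-fold higher in the uterus and not called.

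Of 26 cell cycle genes, 10 were higher in the ovary, 2 were higher in the uterus and 14 were not called (median 0.91). Bub1b, a spindle checkpoint kinase, had levels of 1.15 and 1.20 in the ovary and -0.92 and -0.64 in the uterus, 3.88-fold apart, and Bub1, Aurkb, Ccnb1 and Top2a were between 3.43-fold and 3.86-fold higher. Mki67 and Pcna, read as marks of proliferation, were 1.42-fold and 1.38-fold higher and not called. Cyclin D members differed in direction: Ccnd2, the FSH-induced cyclin, lay at 3.22 and 3.17 in the ovary and 2.16 and 2.38 in the uterus, with differences of 1.06 and 0.80, and Ccnd1 was 3.81-fold higher in the uterus. Of 13 evaluated meiosis genes, 3 were higher in the ovary and 1 in the uterus (median 0.76, which became -0.15 in the authors' table). Smc1b, a meiotic cohesin, and Syce1, of the synaptonemal complex, were at least 11.7-fold and 11.1-fold higher in the ovary, while Stra8 and Spo11, which start meiosis, were not well above background on any of the 4 arrays.

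Retinoid and IGF genes showed exchanges within a family. Crabp1, a retinoic acid carrier, was at 1.57 and 1.26 in the uterus and -1.03 and -0.96 in the ovary (5.32-fold), Rdh10, the first enzyme of retinoic acid synthesis, was 3.74-fold higher in the uterus, and Lrat, which stores retinol as ester, 3.61-fold higher in the ovary. Aldh1a2 and Stra6 differed by 1.20-fold and 1.01-fold. Igfbp3 had levels of 1.85 and 1.95 in the uterus and -2.11 and -1.83 in the ovary, 14.6-fold apart, and Igfbp4 was 2.92-fold higher, whereas Igfbp2 was 3.31-fold higher in the ovary. Igf1 and Igf1r were not called. In all, 4 of 14 retinoid genes and 3 of 10 IGF genes were higher in the uterus, 1 and 2 in the ovary, with medians of -0.32 and -0.43.

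Immune markers lay mostly towards the uterus. Of 12 evaluated neutrophil genes, 10 were higher in the uterus (median -2.29), although Ltf and Lcn2 are also made by uterine epithelium. Mpo, myeloperoxidase of granules, was at -0.53 and -1.06 in the uterus and not well above background in the ovary, at least 37.7-fold apart. S100a8 read 0.86 and -0.66 in the uterus and -0.72 and -3.85 in the ovary, and with the uterus arrays exchanged S100a8, S100a9, Camp, Mmp8 and Stfa3 were no longer called. The summed signal of the neutrophil list, over its 14 genes on the array, was 51.3 and 41.1 in the uterus and 16.1 and 12.3 in the ovary. Among 16 lymphocyte genes, 7 were higher in the uterus (median -1.40), including genes of natural killer cells: Gzmb, a granule protease, had levels of -1.27 and -0.88 in the uterus and -4.29 and -4.42 in the ovary (9.71-fold), the receptor Ncr1 was 6.33-fold and Nkg7 4.73-fold higher. Ms4a1, the B cell antigen CD20, was at least 4.92-fold higher in the ovary. Macrophage genes mostly did not separate the organs, with 2 of 12 higher in the uterus (16.7%, against 11.8% of all evaluated genes), of which Cd14 was 9.12-fold.

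Other structural cells gave smaller groups. Over all evaluated genes, 9.0% were called in the ovary and 11.8% in the uterus, and counts near those shares are no result about a list. Of 14 endothelial genes, 3 were higher in the uterus and 0 in the ovary (median -0.81): Vwf by 3.07-fold, Pecam1 by 2.30-fold and Sox17, at 2.01 and 2.09 against -1.73 and -1.69, by 13.5-fold. SOX17 is also an epithelial factor of the uterus. In the nerve and glia list, 5 of 11 were higher in the ovary, and Uchl1 (62.0-fold), also an abundant oocyte protein, and Tubb3 (15.2-fold) led it, while the glial factor Sox10 was not called. Th, which makes catecholamines, was 4.61-fold higher in the ovary and Dbh, the next-but-one enzyme, 7.07-fold higher in the uterus. Ovgp1, oviductal glycoprotein, was 6.44-fold higher in the uterus, and of 13 oviduct genes 2 went each way. Of 10 surface epithelium and mesothelium genes, 4 were higher in the uterus and 1, Bnc1, 3.52-fold higher in the ovary. Of 7 evaluated skeletal muscle genes, 3 were higher in the uterus and 2 in the ovary. Among 8 erythroid genes 2 were higher in the ovary, among them Klf1, a call lost with normexp, and the haemoglobins were not called. The adipocyte list had 1 of 10 genes higher in the ovary, Plin1 (at least 19.7-fold), and 2 in the uterus. Its median of -0.13 became 0.89 with the BHPF arrays alone. Of 18 evaluated liver genes 0 were called, and of 16 housekeeping genes 0 were called (median 0.02).

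**Figure D4:**
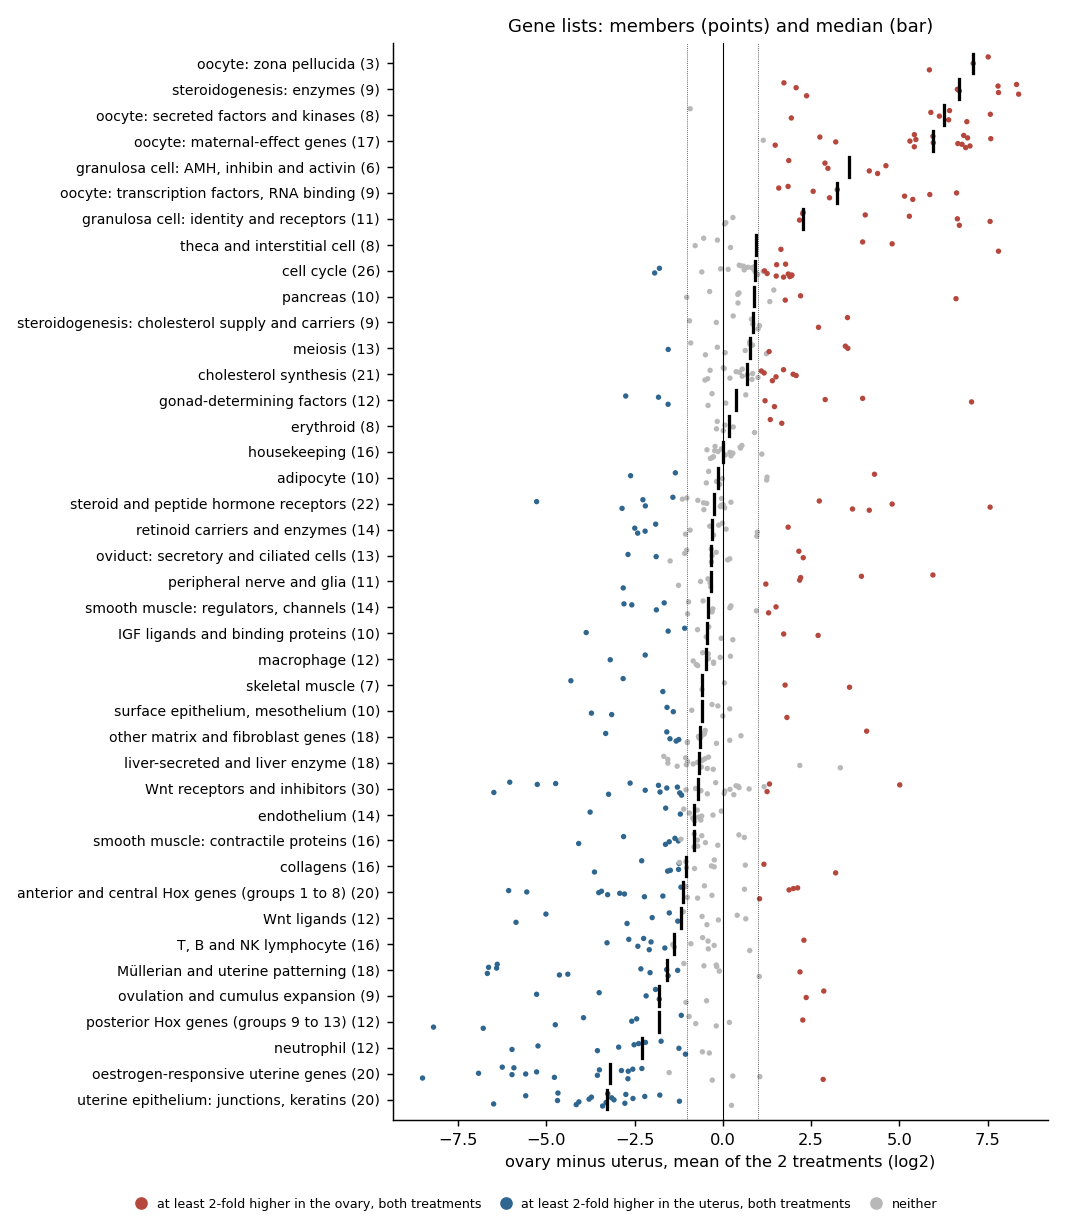
Ovary minus uterus difference (log2, mean of both pairs) of the evaluated members of 41 gene lists (points, coloured by call), with the median of each list as a bar and the number of genes in brackets. Oocyte and steroid enzyme lists lie at the top, uterine epithelium at the bottom with a median of -3.28, and housekeeping genes at 0.02.

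Beyond the lists, the genes of largest difference were taken without regard to function. Among those well above background on all 4 arrays, the uterus was led by Pcp4, a calmodulin-binding peptide, at 4.05 and 3.94 in the uterus and -4.39 and -4.66 in the ovary, 367-fold apart. After it came BC048679 (219-fold), Hoxa11os, a transcript antisense to Hoxa11 (166-fold), Lrrc26, a potassium channel subunit (145-fold), Fxyd4, a regulator of the sodium pump (142-fold), Plekhs1 (140-fold), Lypd2 (138-fold), the vesicle protein Mal2 (121-fold) and the mucosal chemokine Cxcl17 (100-fold). The ovary was led by Cyp17a1 and Hsd3b1, followed by Zar1, Hsd17b1, Gdf9 and the oocyte homeobox gene Obox7, at 2.14 and 2.31 against -4.33 and -4.19 (89.8-fold). Tdrd5 and Tex14, germ cell genes, were 70.9-fold and 68.1-fold, and the F-box genes Fbxw26 and Fbxw27 69.8-fold and 66.7-fold higher.

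The next genes were well above background on both arrays of a tissue and on neither array of the other, so their folds are floors and have no order. Acsbg1, an acyl-CoA synthetase of steroid-producing and nerve cells, was at 3.04 and 3.29 in the ovary and at least 348-fold higher there. Cnmd, chondromodulin, at least 273-fold, Obox5 at least 252-fold, Fbxw14 at least 240-fold and Prss35, a protease of follicles, at least 215-fold were also higher in the ovary. On the uterine side, beside Clca1 and Hoxa11, were Wfdc15b (at least 190-fold), Rxfp1, the relaxin receptor, at 0.93 and 0.68 in the uterus (at least 114-fold), the protease Tmprss2 (at least 104-fold), the vitamin C transporter Slc23a1 (at least 87.1-fold) and Fut9, a fucosyltransferase (at least 78.5-fold). Together, of 39532 evaluated probes, 2206 were well above background on both ovary arrays and neither uterus array, and 574 on both uterus arrays and neither ovary array. The background mark reached dimmer levels in the ovary. Its lowest passing level there was -6.33 (control) and -5.74 (BHPF), against -5.80 and -5.07 for the uterus. The part of this limit in the 2 counts was not tested. The 2-fold calls had the opposite order, with 2936 probes for the ovary and 3847 for the uterus.

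A small set of probes gave opposite answers in the 2 pairs. At 2-fold each way there were 70, and 51 of them were among the probes at least 64-fold brighter in liver. Hpd, a liver enzyme of tyrosine breakdown, had levels of -3.83 and -3.17 in the control and BHPF ovary, -5.89 in the control uterus and -0.05 in the BHPF uterus, against 5.51 and 5.66 in liver. Among 11 genes of largest opposite difference, 9 were higher in the BHPF uterus than in the control uterus. This direction follows the array labels, since the files did not settle which uterus pool had received BHPF. Adipoq, the fat cell hormone adiponectin, and Cfd, adipsin, ran the other way: Adipoq was at -1.21 in the control uterus and -4.52 in the BHPF uterus, and at -3.62 and -2.27 in the ovary. With a single array on each side, whether these differences exceed the spread between pools could not be tested.

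**Figure D5:**
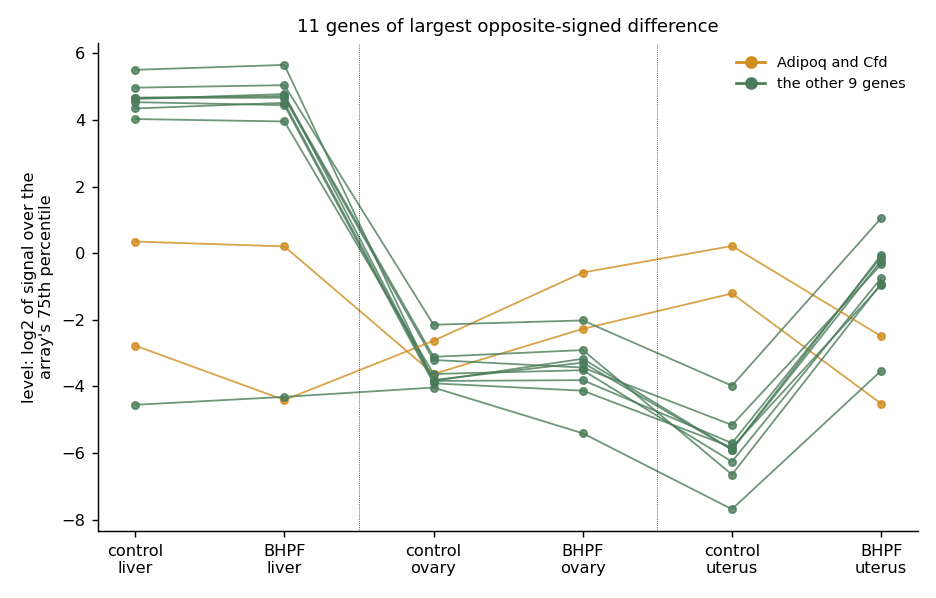
Levels (log2 of signal over the array's 75th percentile) on all 6 arrays of 11 genes of largest ovary minus uterus difference with opposite signs in the control and BHPF pairs. Of the green lines, 8 are high in liver and all 9 are higher on the array labelled BHPF uterus than on that labelled control uterus. Adipoq and Cfd (orange) are higher on the array labelled control uterus. Which uterus pool had received BHPF was not settled by the files.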

How the data were processed

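RNA of ovary and uterus was hybridised to one-colour mouse 8x60K Agilent arrays, 1 array a tissue and treatment, each from a pool of 3 mice. The deposited scanner files hold spot intensities, which the authors extracted with Agilent Feature Extraction (version 9.1 per the submitters' processing notes, a later version per the file headers) after background subtraction. The deposited value table holds log2 values normalized by the authors and was used as an alternative; it lists fewer probes.

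Spots of a probe were averaged, and log2 of the processed signal minus the array's 75th percentile gave the level. Feature Extraction's background flag decided which probes were evaluated, and a probe passed on an array where more than 50% of its spots did. A dim side was replaced by the array's lowest signal well above background, or the probe's own if higher. A call needed 2-fold in the same direction in both pairs. limma 3.58.1 (R 4.3.3, Python 3.11.15) fitted tissue and treatment, leaving 1 residual degree of freedom, with Benjamini-Hochberg adjustment. The call rule was tested on simulated data. Probes were named through RefSeq accessions (26762 of 55681 probes, 20284 symbols), and probes of a symbol were averaged; 6 of 4244 genes with several probes had probes 2-fold apart in opposite directions.

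The named genes are members of 41 lists, the 12 genes of largest difference each way with all arrays above background and as bounds, and those of largest opposite difference. Members and lists were chosen with earlier results of these data known. A few genes are not reported here. The liver arrays served only as a reference for liver RNA. Processed signal, scaling, the filter on dim probes, the bounds, the fold, the uterus order and single pairs were varied.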

Additional observations from a re-analysis of the deposited data

Results flagged for a closer look

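For 11 genes, the ovary minus uterus difference had opposite signs in the control pair and in the BHPF pair. Each treatment gave a single difference, from 1 ovary array and 1 uterus array, and the genes were chosen for their opposite signs. With 1 array a group the difference between the pairs was not tested. Taken as the control difference minus the BHPF difference (log2), the values were 4.95 for Afm, 4.69 for Mat1a, 5.05 for Cyp2c29, 5.09 for Hpd and 5.05 for Cyp2c68. They were 5.07 for 1300017J02Rik, 5.56 for Cyp2c39 and 4.91 for Fgg. These 8 genes, plasma proteins and enzymes of the liver or unnamed clones, were at 3.96 or above on both liver arrays. For 1600029I14Rik, at -4.55 and -4.31 in liver, the value was 3.65. Adipoq and Cfd, made by fat cells, had values of -4.66 and -4.75. The median of the liver list was 1.31 in the control pair and -2.60 in the BHPF pair, 3.91 apart. The signs of these values follow the array labels, since the files did not settle which uterus pool had received BHPF. The part of liver or fat in the pools of these arrays was not tested.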

How the results depend on the processing

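Counts of probes at least 2-fold apart in both pairs (2936 higher in the ovary, 3847 in the uterus) stayed within 1.5 times under the settings tried, with 3 exceptions. Restricting to probes well above background on all 4 arrays left 1825 in the ovary, requiring 4-fold left 1122 and 1468, and counting genes gave 1480 and 1942, each by construction of a stricter or coarser count. Over the other settings the ovary count ran from 2134 (the authors' table) to 3996 (control arrays alone) and the uterus count from 3279 to 5079. limma's counts ran from 5935 to 8448 in the ovary and from 6308 to 9237 in the uterus. Scaling to the 50th percentile raised the ovary's share of the 2-fold calls from 43.3% to 51.0%, and the cause was not tested. Of 303 listed genes with a call, 288 kept it with normexp, 293 with the 50th percentile, 295 with quantile normalization, 289 with the uterus arrays exchanged and 298 with the brightest probe, and 226 of 240 in the authors' table. List medians changed sign for gonad-determining and meiosis genes (authors' table), adipocyte and erythroid genes (BHPF arrays alone) and liver and housekeeping genes (control arrays alone). The treatment term of the limma fit pairs ovary and uterus within control and within BHPF; without it 7453 probes passed in the ovary and 8745 in the uterus, against 6938 and 8032 with it. Signal over background limits the dim side: 1111 of the ovary calls and 995 of the uterus calls rest on a bound.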
